A study of Mus musculus with 4 samples.

Results

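The 10 genes described here belong to the writing, copying and removal of DNA methylation: Dnmt1, Dnmt3a, Dnmt3b, Dnmt3l, Tet1, Tet2, Tet3, Uhrf1, Uhrf2 and Tdg. They encode enzymes and partner proteins, and are called enzyme genes below for short. They were chosen by name from the 21887 protein-coding genes on the mouse autosomes, X and Y. INO80 binding at them was read from chromatin immunoprecipitation and sequencing (ChIP-seq) peaks whose edge lay within 5 kb of the gene, in each of 2 replicates, and from the authors' set of reproducible peaks. INO80 is the ATPase of a nucleosome remodelling complex. The 2 INO80 libraries and the 2 input libraries came from the same kind of sample, and no group differed in treatment or genotype. All were testis cells of DBA/2J x C57BL/6J F1 mice that received fertilysin, an inhibitor of retinoic acid synthesis, from 2 dpp (days after birth) and retinoic acid at 9 dpp. Cells were taken 8 days after retinoic acid, at early zygotene of the first meiotic wave, and a 28% Percoll gradient served to enrich spermatocytes. The number of animals per pool is not given in the labels, so the spread between replicates may be technical.

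DNA methylation in mammals sits mostly on the cytosine of CpG dinucleotides. DNMT1 copies it onto the new strand at replication, guided by UHRF1, which recognises hemimethylated CpG, while DNMT3A and DNMT3B set new methylation with DNMT3L as a catalytically inactive partner in germ cells. The TET enzymes oxidise 5-methylcytosine, and the glycosylase TDG excises the oxidised products. Several of these genes use alternative first exons. Dnmt1 has separate ones in oocytes, in somatic cells and in pachytene spermatocytes, Dnmt3a has an internal start that gives the shorter DNMT3A2, and Dnmt3l and Tet3 also have alternative promoters. In the male germ line new methylation is laid down before birth, well ahead of the meiotic stage sampled here.

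INO80 replicate 1 held 98100000 uniquely mapped reads (rounded as deposited) and 5123 peaks, and INO80 replicate 2 held 82600000 such reads and 7836 peaks. The inputs held 70400000 and 39600000. Fold enrichment is the peak caller's own value for each peak as deposited by the authors, with a median of 3.23 over all replicate 1 peaks and 3.59 over all replicate 2 peaks. Positions are on GRCm38. With 1 group of 2 ChIP libraries there was nothing to test between groups, so all comparisons with other genes or peaks below are descriptions. ChIP-seq measures binding and not expression, so markers can check the cell type only in part: 0 of 12 zygotene spermatocyte markers (Dmc1 and Hormad1 among them) had a peak within 5 kb in either replicate, against 26.0% of all protein-coding genes in replicate 1 and 35.7% in replicate 2. Markers of other testis cells near a peak in both replicates were 7 of 12 for spermatogonia (Kit, folds 4.81 and 7.22 in replicates 1 and 2), 5 of 10 for Sertoli cells (Kitl, 3.95 and 4.88), 1 of 6 for Leydig cells (Insl3, 2.72 and 4.32), 2 of 6 for peritubular and endothelial cells (Flt1, 4.75 and 6.36) and 0 of 5 for macrophages (Adgre1 and Aif1 among those without), against 24.0% of all protein-coding genes. The Leydig, peritubular and endothelial shares lay near that of all genes. How far other cells contribute to the peaks described below was not tested.

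The DNA just upstream of 8 transcript starts of 5 of these genes is shown because INO80 peaks divided these starts into covered and uncovered ones, and because the sequences differ in CpG. Each is the 250 bases before a RefSeq start (GRCm38.p6), 5′ to 3′ on the gene's strand, with CpG dinucleotides in capitals. Starts are numbered along each gene in the direction of transcription. Start 1 is not always the edge of the gene's RefSeq span. Tet2 spans chr3:133463677-133545136 and Dnmt3a chr12:3801559-3914443, so the bases printed for Tet2 start 1 and Dnmt3a start 1 lie inside these genes. Tet3, not printed, spans chr6:83362373-83457208, which also begins before its start 1. The Tet2 start carried the strongest peak of all 10 genes. Dnmt1 start 2, Dnmt3a start 1 and Uhrf1 start 1 lay inside a peak in at least 1 replicate, while Dnmt1 start 1, Dnmt3a start 3, Dnmt3l start 2 and Uhrf1 start 2 lay in none. At Dnmt1 start 2 and Uhrf1 start 1 the peaks covered only part of the printed bases.
Tet2 start 1, chr3:133544391-133544640, minus strand: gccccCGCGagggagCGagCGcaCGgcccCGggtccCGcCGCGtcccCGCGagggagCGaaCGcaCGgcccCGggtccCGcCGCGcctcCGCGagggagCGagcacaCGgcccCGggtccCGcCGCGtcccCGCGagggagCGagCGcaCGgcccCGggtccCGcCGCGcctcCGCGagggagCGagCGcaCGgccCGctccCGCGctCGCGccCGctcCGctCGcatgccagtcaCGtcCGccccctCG
Dnmt1 start 1, chr9:20959889-20960138, minus strand: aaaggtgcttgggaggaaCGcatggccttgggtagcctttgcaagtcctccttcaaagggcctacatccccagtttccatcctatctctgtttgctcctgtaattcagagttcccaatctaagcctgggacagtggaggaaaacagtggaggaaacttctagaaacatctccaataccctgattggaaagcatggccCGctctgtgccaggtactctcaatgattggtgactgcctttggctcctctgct
Dnmt1 start 2, chr9:20952980-20953229, minus strand: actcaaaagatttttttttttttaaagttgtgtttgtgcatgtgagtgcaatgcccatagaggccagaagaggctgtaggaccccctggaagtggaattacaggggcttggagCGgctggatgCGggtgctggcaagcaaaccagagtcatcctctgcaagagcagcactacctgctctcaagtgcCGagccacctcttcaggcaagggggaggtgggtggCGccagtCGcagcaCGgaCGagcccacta
Dnmt3a start 1, chr12:3806730-3806979, plus strand: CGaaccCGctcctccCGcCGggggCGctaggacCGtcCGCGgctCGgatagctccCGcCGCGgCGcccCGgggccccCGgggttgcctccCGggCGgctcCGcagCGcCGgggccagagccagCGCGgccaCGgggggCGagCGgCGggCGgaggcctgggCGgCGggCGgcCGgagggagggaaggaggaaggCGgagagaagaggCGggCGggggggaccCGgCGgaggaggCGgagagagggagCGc
Dnmt3a start 3, chr12:3891494-3891743, plus strand: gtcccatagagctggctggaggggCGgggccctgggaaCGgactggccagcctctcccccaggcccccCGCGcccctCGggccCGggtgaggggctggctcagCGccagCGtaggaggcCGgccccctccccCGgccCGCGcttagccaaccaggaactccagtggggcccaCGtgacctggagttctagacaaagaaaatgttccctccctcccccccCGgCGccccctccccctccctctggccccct
Dnmt3l start 2, chr10:78049592-78049841, plus strand: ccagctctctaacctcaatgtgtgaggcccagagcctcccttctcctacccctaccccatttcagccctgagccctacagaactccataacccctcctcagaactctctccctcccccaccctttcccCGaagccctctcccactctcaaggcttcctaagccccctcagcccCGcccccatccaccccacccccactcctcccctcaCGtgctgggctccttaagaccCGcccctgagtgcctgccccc
Uhrf1 start 1, chr17:56303087-56303336, plus strand: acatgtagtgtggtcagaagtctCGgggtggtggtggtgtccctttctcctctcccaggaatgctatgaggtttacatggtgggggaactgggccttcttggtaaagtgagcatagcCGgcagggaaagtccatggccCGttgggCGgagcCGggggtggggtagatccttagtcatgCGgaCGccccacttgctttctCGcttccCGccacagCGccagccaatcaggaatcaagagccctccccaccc
Uhrf1 start 2, chr17:56304063-56304312, plus strand: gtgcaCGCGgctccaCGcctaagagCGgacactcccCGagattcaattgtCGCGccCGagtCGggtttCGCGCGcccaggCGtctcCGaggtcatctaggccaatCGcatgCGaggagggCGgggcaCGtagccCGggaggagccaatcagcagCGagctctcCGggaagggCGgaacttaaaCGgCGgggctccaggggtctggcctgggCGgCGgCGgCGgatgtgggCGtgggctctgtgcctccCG
The Tet2 sequence holds 51 CpG in 250 bases and Dnmt3a start 1 holds 38, against 2 at Dnmt1 start 1 and 4 at Dnmt3l start 2. Dnmt1 start 2 holds 7, Dnmt3a start 3 holds 15, Uhrf1 start 1 holds 10 and Uhrf1 start 2 holds 30.

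Most of the 10 genes had an INO80 peak, and their peaks were near the middle of the lists in strength. A peak lay within 5 kb of 6 of the 10 genes in replicate 1, against 26.0% of all protein-coding genes, and of 9 of the 10 in replicate 2, against 35.7%. Dnmt1, Dnmt3b, Tet2, Tet3, Uhrf2 and Tdg had a peak in both replicates, 6 of 10 against 24.0% of all genes. Dnmt3a, Tet1 and Uhrf1 had one in replicate 2 alone. Dnmt3l had none in either, as was the case for 62.4% of all protein-coding genes. The reproducible set, which the authors built from both replicates with a limit of 0.05 on the irreproducible discovery rate (IDR), per its title, named 5 of the 10 genes (Dnmt1, Dnmt3b, Tet2, Tet3 and Uhrf2), against 11.8% of protein-coding genes. In all there were 7 peaks at these genes in replicate 1, with folds of 2.79 to 4.30 and a median of 3.18. Replicate 2 had 10, with folds of 2.46 to 5.14 and a median of 3.63. Of these, 3 of the 7 and 5 of the 10 were above the median fold of their own list. Over the 6 genes with a peak in both replicates, the median of the mean fold was 3.63, against 3.84 over the 5256 protein-coding genes of that kind.

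**Figure D1:**
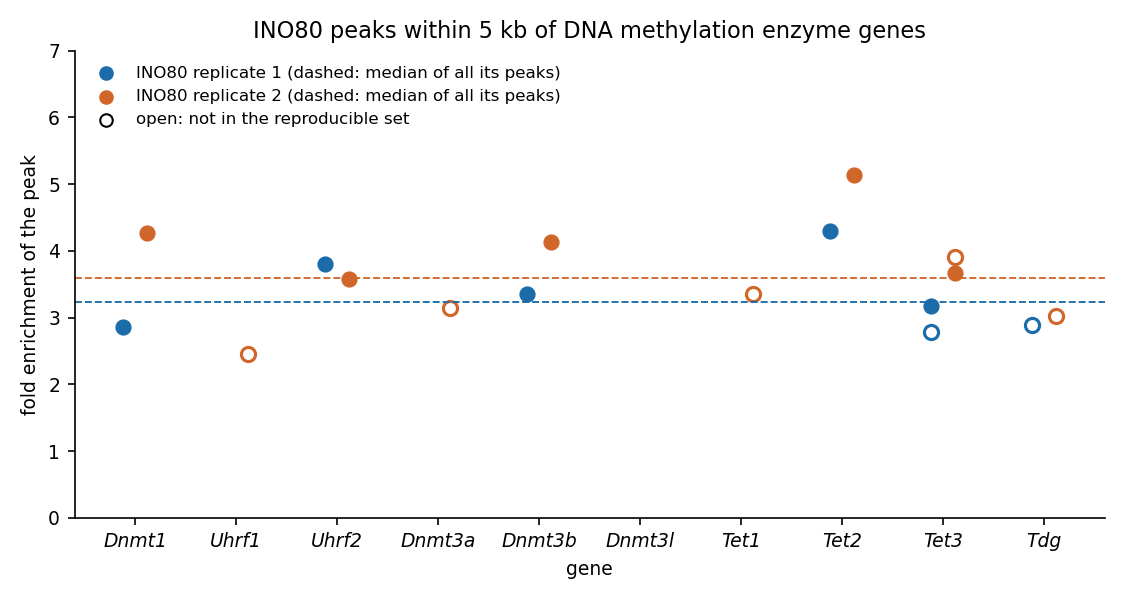
Fold enrichment (y axis) of every INO80 peak within 5 kb of each gene (x axis), 1 point per peak, with replicate 1 in blue, replicate 2 in orange and open circles for peaks outside the reproducible set; dashed lines are the medians of all peaks, 3.23 and 3.59. Tet2 has the highest point in both replicates, 4.30 and 5.14, and Dnmt3l has no point.

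Among the maintenance genes, Dnmt1, the copying methyltransferase, had a peak with a fold of 2.86 in replicate 1 and 4.27 in replicate 2 (mean 3.57 ± 0.999, SD, n = 2). These stood at the 25.5th and 67.4th percentile of their lists, the widest split between replicates among the genes bound in both. The reproducible peak spanned chr9:20952266-20953157, 892 bp, and was classed by the authors as promoter, with its centre at -88 bp from a start at the same base as RefSeq start 3. Dnmt1 spans chr9:20907206-20959888 on the minus strand and has 3 RefSeq starts in the promoter table. Start 1 lies 6909 bp upstream of start 2, and start 2 lies 356 bp upstream of start 3. Peaks in both replicates covered starts 2 and 3 and ended 6825 bp (replicate 1) and 6749 bp (replicate 2) short of start 1. Start 1, whose upstream sequence is printed above with 2 CpG, had a CpG observed over expected of 0.101 in its 300 bp window. The same measure was 0.500 at start 2 and 0.910 at start 3. The tables used here do not label which start is oocyte, somatic or spermatocyte.

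Uhrf1, the hemimethylated CpG reader that brings DNMT1 to replicated DNA, had a single weak peak. Its fold was 2.46 in replicate 2, at the 4.84th percentile of that list, with a −log10 q of 1.87, and there was no replicate 1 peak within 45478 bp of start 1. The replicate 2 peak (chr17:56303231-56304053, 823 bp) covered start 1 and stopped 260 bp before start 2, which lies 976 bp downstream. Start 2 was the more CpG-rich, with a CpG observed over expected of 0.959 against 0.472 at start 1, so here the covered start was the CpG-poorer one. Uhrf2, the paralog of Uhrf1, was bound more strongly. Its folds were 3.80 in replicate 1, the 74.3rd percentile, and 3.58 in replicate 2, the 49.8th (mean 3.69 ± 0.158, SD, n = 2). The reproducible peak at chr19:30029951-30031495 spanned 1545 bp, with its centre 210 bp downstream of the start and a class of 5' UTR. Uhrf2 was the 1 gene of these with a lower fold in replicate 2 than in replicate 1.

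Of the new-methylation genes, Dnmt3b had folds of 3.36 in replicate 1 and 4.14 in replicate 2 (mean 3.75 ± 0.552, SD, n = 2). Both peaks were centred on the gene side of the start. The replicate 1 peak covered the start, and the replicate 2 peak began 39 bp downstream of it. Its reproducible peak, chr2:153649405-153650336, was classed as intron with its centre 421 bp downstream. Dnmt3a, the methyltransferase needed for imprints in the male germ line, had a wide peak of low fold in replicate 2 alone. It measured 2388 bp, at the 88.1st percentile of widths in that list, with a fold of 3.14, at the 34.2nd percentile of folds. This peak (chr12:3806157-3808544) covered starts 1 and 2, which are 180 bp apart. Start 3, 84584 bp farther into the gene, was in no peak, and the nearest one ended 83200 bp away in replicate 2. CpG observed over expected was 0.964 and 1.06 at starts 1 and 2, against 0.468 at start 3. In replicate 1 no peak lay within 231347 bp of start 1.

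Dnmt3l, the inactive partner of the new-methylation enzymes, was the exception among the 10 genes, although 62.4% of all protein-coding genes likewise had no peak within 5 kb. None of its 3 starts was near a peak. Distances from starts 1, 2 and 3 to the nearest peak were 32285, 39840 and 45333 bp in replicate 1, and 26871, 19316 and 13823 bp in replicate 2. All 3 were CpG-poor, with 6, 4 and 3 CpG per window and a CpG observed over expected of 0.272, 0.219 and 0.114. Just outside the 5 kb limit, 5536 bp past the end of the gene, replicate 2 had a peak with a fold of 3.69 (chr10:78069158-78069919). That peak overlapped Icosl and the non-coding gene Gm51775. The limit also left out a replicate 2 peak 6725 bp from Tdg with a fold of 2.89, which overlapped 1190007I07Rik. All peaks inside the limit overlapped the gene itself.

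**Figure D2:**
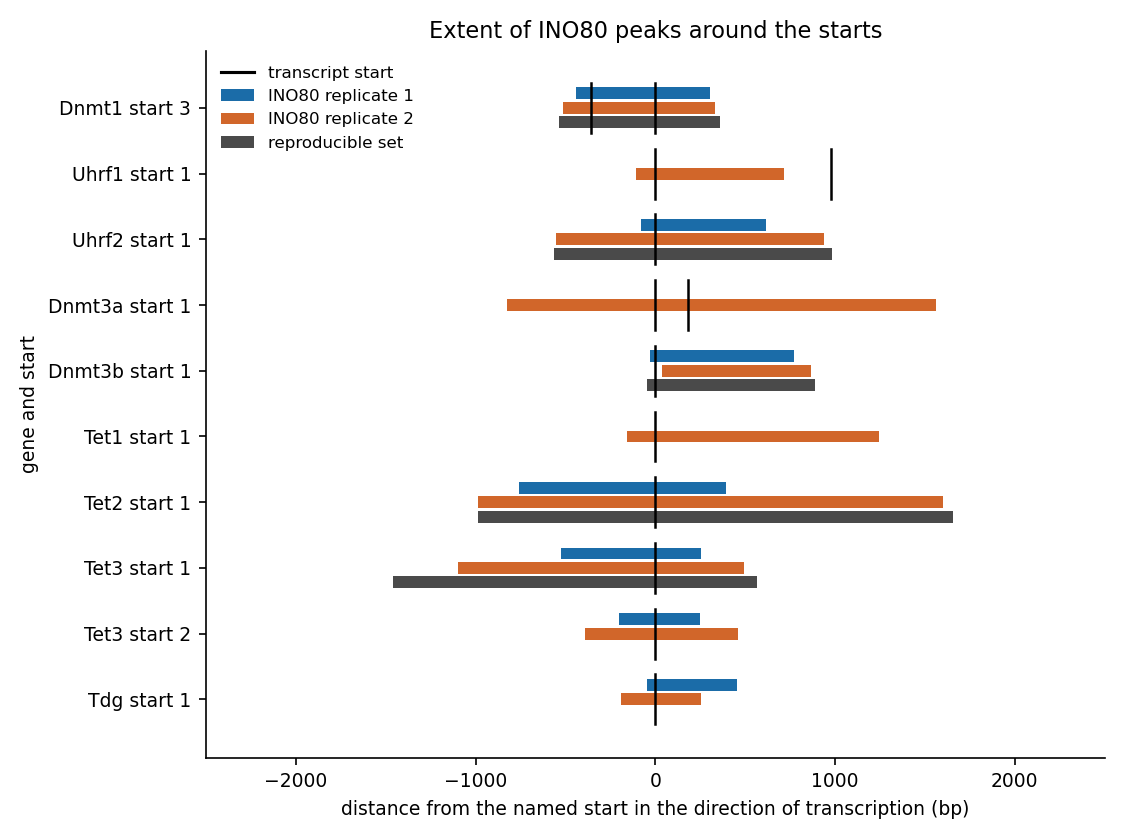
Extent of INO80 peaks (bars; replicate 1 blue, replicate 2 orange, reproducible set grey) along the distance in bp from a named start in the direction of transcription (x axis), for each gene and start with a peak (y axis); black ticks are transcript starts. Peaks at Dnmt1 span starts 2 and 3, the Uhrf1 peak ends 260 bp before start 2, and the Tet3 peaks form separate sites at starts 1 and 2.

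Tet2 carried the strongest binding among these genes. Tet2 folds were 4.30 in replicate 1 (the 85.1st percentile of that list) and 5.14 in replicate 2 (the 81.3rd), with a mean of 4.72 ± 0.589 (SD, n = 2). Its −log10 q was 9.90 and 18.9. Ranked by mean fold, Tet2 stood 1286th of the 5256 protein-coding genes near a peak in both replicates. Dnmt3b followed at 2815th, Uhrf2 at 2951st, Dnmt1 at 3237th, Tet3 at 3289th and Tdg at 4686th. These ranks use the strongest peak of each replicate, which for Tet3 lay at different starts in the replicates, so its mean of 3.54 is not that of 1 site. The mean folds of Dnmt3b (3.75), Uhrf2 (3.69) and Dnmt1 (3.57) lay closer together than the replicate SD of Dnmt3b (0.552) or Dnmt1 (0.999). The Tet2 peak was also wide, 1149 bp in replicate 1 and 2587 bp in replicate 2. Its centre lay at -183 bp from start 1 in replicate 1 and at 308 bp in replicate 2, in both cases inside the RefSeq span of the gene. The reproducible peak at chr3:133542735-133545378 spanned 2644 bp and was classed as intron, with its centre 334 bp downstream.

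The Tet2 upstream sequence printed above is a tandem repeat. Bases 42 positions apart were identical at 77.9% of positions in the 250 bases, the highest value over repeat lengths of 20 to 100 bases. The other 16 starts of these genes gave 29.2% to 49.0% by the same measure. Over all 21263 starts the median was 34.7%, and 7 starts (0.0329%) reached the Tet2 value. The part of the repeat in the Tet2 fold was not tested. With 57 CpG in its 300 bp window, Tet2 had a CpG observed over expected of 1.17, above that of 98.9% of all starts.

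Tet3 was bound at separate sites in both replicates. Tet3 start 1, placed at position 83456392 from the authors' distance and not among the RefSeq windows, had peaks with folds of 3.18 in replicate 1 and 3.67 in replicate 2. Start 2, a RefSeq start 14714 bp downstream, had peaks with folds of 2.79 and 3.91. The order of the sites thus differed between replicates, with start 1 higher in replicate 1 and start 2 higher in replicate 2. The site at start 1 was in the reproducible set (chr6:83455829-83457850, promoter, centre at -447 bp). The site at start 2 was not, although its peaks in both replicates overlapped. Peaks at start 2 were narrower, 450 and 852 bp in replicates 1 and 2, against 779 and 1595 bp at start 1. Start 2 peaks also overlapped the non-coding gene B230319C09Rik (chr6:83441755-83448322), and binding to one or the other cannot be told apart.

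Tet1 had a peak in replicate 2 alone, with a fold of 3.36 at the 42.8th percentile. That peak, chr10:62886081-62887480, measured 1400 bp, covered the start and was centred 544 bp downstream. It also lay within the non-coding gene Gm51805 (chr10:62865670-62910643), and binding to one or the other cannot be told apart. The nearest replicate 1 peak lay 59490 bp from the Tet1 start. Tdg, the glycosylase that removes oxidised methylcytosine, had folds of 2.89 in replicate 1 and 3.03 in replicate 2 (mean 2.96 ± 0.101, SD, n = 2). These were at the 27.9th and 29.4th percentile. The Tdg peaks overlapped and covered the start, and were narrow at 503 and 445 bp, yet the reproducible set did not hold them. Peaks in the reproducible set had a median fold of 3.67 in replicate 1 and 5.08 in replicate 2, with 5th percentiles of 2.96 and 3.81. Both Tdg values lay below these 5th percentiles. Of the other genes with a peak in both replicates, so did the replicate 1 values of Dnmt1 and Tet3 start 2 and the replicate 2 values of Uhrf2 and Tet3 start 1.

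**Figure D3:**
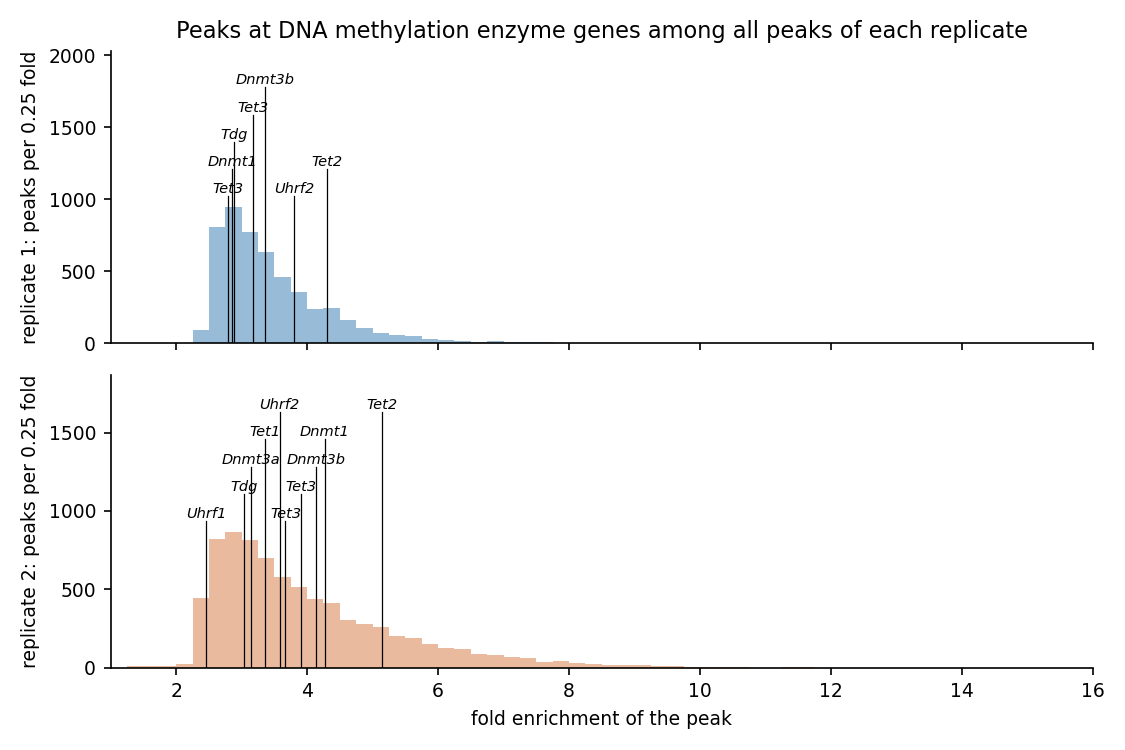
Histograms of the fold enrichment (x axis) of all peaks in replicate 1 (top, 5123 peaks) and replicate 2 (bottom, 7836 peaks), in peaks per 0.25 fold (y axis), with a line for each peak within 5 kb of a DNA methylation enzyme gene. Uhrf1 sits at the low end in replicate 2 with 2.46, and no gene reaches beyond the Tet2 values of 4.30 and 5.14.

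Replicates were compared at the 7 sites where their peaks overlapped. At 6 of the 7 sites replicate 2 had the higher fold, with a median ratio of replicate 2 over replicate 1 of 1.19 and a range of 0.941 (Uhrf2) to 1.49 (Dnmt1). Over all 4722 overlapping replicate 1 peaks, the ratio had a median of 1.29 and was above 1 at 89.1%. Peak widths differed more, with a median ratio of 1.89 at these sites and 1.63 over all overlapping peaks. Replicate 2 peaks were wider at 6 of the 7, and Tdg was the exception with a ratio of 0.885. The replicate 2 peaks of Dnmt3a, Tet1 and Uhrf1, which had no partner, had folds of 3.14, 3.36 and 2.46. The 3169 replicate 2 peaks that overlapped neither replicate 1 nor the reproducible set had a median of 2.93, with 95% of them at 4.15 or below.

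Peaks at these genes sat at transcript starts, as most peaks near genes did. With Tet3 start 1 counted, all 7 replicate 1 peaks and 9 of the 10 replicate 2 peaks covered a start, and all 17 were centred within 1 kb of one. By RefSeq starts alone, 6 of the 7 and 8 of the 10 covered a start, against 62.1% of the 3970 replicate 1 peaks and 62.9% of the 5759 replicate 2 peaks within 5 kb of any gene of the promoter table. Centres within 1 kb of a RefSeq start were found for 6 of the 7 and 9 of the 10, against 81.3% and 75.3% of those peaks, which does not set these few peaks apart. Offsets of the centre from the nearest start ran from -183 to 370 bp in replicate 1 and from -301 to 544 bp in replicate 2.

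CpG content was compared at the 17 RefSeq starts of the 10 genes and the 21263 starts of the 17492 protein-coding genes found in the promoter table. A window ran from 250 bases before to 50 after the start and was called CpG-rich at a GC content of at least 50% and a CpG observed over expected of at least 0.6, limits chosen after the data were seen. Of the 17 starts, 7 were covered by a replicate 1 peak and 10 by a replicate 2 peak, against 13.4% and 20.2% of all starts. Some of these starts share a peak, as at Dnmt1 and Dnmt3a. Of the 9 CpG-rich starts, 5 were covered in replicate 1 and 7 in replicate 2, against 26.6% and 36.5% of all CpG-rich starts. Of the 8 others, 2 were covered in replicate 1 and 3 in replicate 2, against 2.54% and 6.86%. The 6 starts of these genes covered in both replicates had a median CpG observed over expected of 0.868, against 0.852 for all 2456 such starts. The 6 covered in neither had a median of 0.246, against 0.407 for all 16567. Uhrf1 start 2 was the 1 CpG-rich start that neither replicate covered. Dnmt1 start 2 (0.500), Tet3 start 2 (0.576) and Uhrf1 start 1 (0.472) were covered with a value below 0.6.

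**Figure D4:**
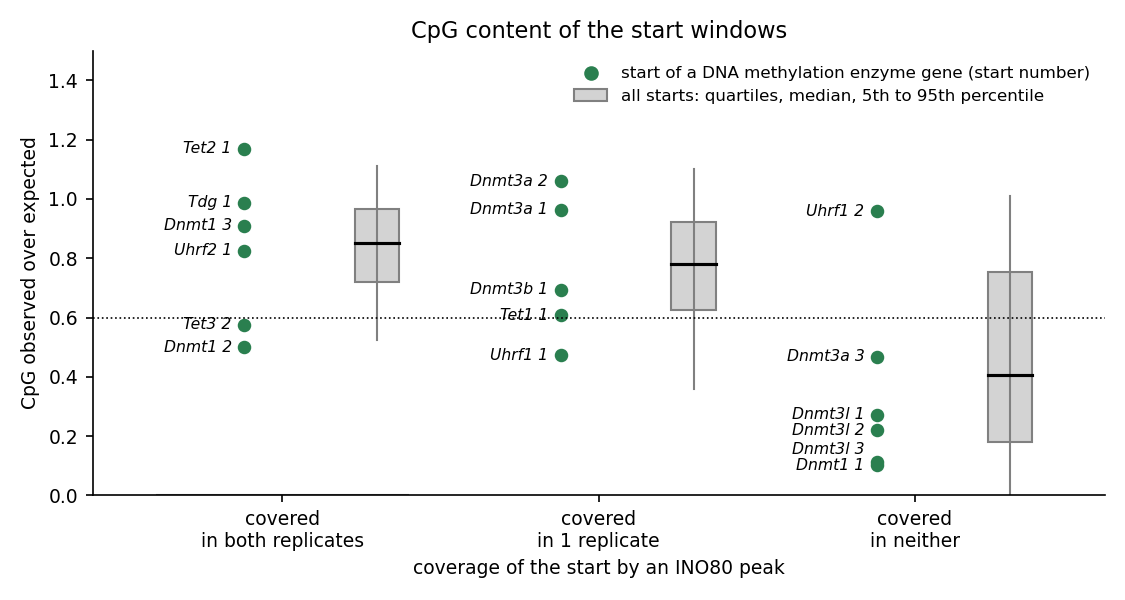
CpG observed over expected (y axis) of the 300 bp window at each start of the DNA methylation enzyme genes (green points, labelled with gene and start number), by coverage in the replicates (x axis), beside all starts (boxes are quartiles with the median, whiskers the 5th to 95th percentile; dotted line at 0.6). Uncovered starts lie low except Uhrf1 start 2 at 0.959, and Dnmt3b counts as covered in 1 replicate because its replicate 2 peak began 39 bp past the start.

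The same windows were searched on both strands for the core motifs of YY1, E2F and NRF1. AANATGGC, a core of YY1, a zinc finger protein that binds the INO80 complex, was in none of the 17 windows, against 6.37% of all windows. TTTNNCGC, a core of the E2F cell cycle factors, was in 3 of 17, at Dnmt1 start 3 with 3 matches, counting overlapping ones, and at both Uhrf1 starts, against 6.24%. CGCATGCG, the core of the NRF1 site, was also in 3 of 17, at Dnmt1 starts 2 and 3 and at Uhrf1 start 2, against 2.52%. The matches describe these letters in these windows only.

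Genes that act with these enzymes were then counted in 7 lists, which hold 75 symbols, of which all but Dnmt3c matched the gene table. A peak within 5 kb can belong to a neighbouring gene, and list members were not inspected singly. Of the 74 genes, 27 were near a replicate 1 peak (36.5%), 30 near a replicate 2 peak (40.5%) and 26 near both (35.1%), against 26.0%, 35.7% and 24.0% of all genes. The reproducible set named 7 (9.46%), near the 11.8% of all genes. The median of the mean fold was 3.38 over the 26, below the 3.84 over all genes near a peak in both.

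Partners of maintenance methylation had 4 of 8 near a peak in both replicates and 3 in the reproducible set, against 24.0% and 11.8% of all genes. Cdca7l (folds 6.11 and 6.97 in replicates 1 and 2) and Cdca7 (5.30 and 6.35), which encodes an activator of the remodeller HELLS, had higher folds than any of the 10 enzyme genes in both replicates. Usp7, a deubiquitinase that binds DNMT1 and UHRF1, had 3.37 and 4.24. Hells itself and Lig1 had no peak within 5 kb. Proteins with a CXXC domain, which binds unmethylated CpG, had 6 of 8 near a peak in both, with Cxxc5 (3.61 and 5.49), Kmt2a (3.55 and 4.32) and Kdm2b (2.64 and 4.14) highest and Cxxc1 and Fbxl19 without. The median mean fold of these 6 was 3.17. The reproducible set named 1 of the 8 (12.5%), near the 11.8% of all genes.

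Methyl-CpG readers had 4 of 10 near a peak in both, led by Zbtb38 (3.78 and 4.96), Mbd3 (3.08 and 4.63) and Mbd6 (3.16 and 2.55), without Mbd1 and Mbd2. Heterochromatin and imprint protection genes had 4 of 12, with the H3K9 methyltransferase genes Suv39h2 (3.92 and 3.72) and Ehmt1 (3.18 and 3.80) and the HP1 gene Cbx3 (3.73 and 3.0), but not Cbx1 or Cbx5. Base excision genes had 4 of 18 (22.2%), with Xrcc1 (3.09 and 4.04), Gadd45g (2.83 and 3.99) and Nthl1 (3.06 and 3.60), and none at Apex1. Partners of new methylation and germline silencing had 2 of 8 (25%), Nsd1 (3.62 and 3.30) and Kdm1b (2.90 and 3.42), without Morc1 and Piwil2. Methyl donor metabolism had 2 of 10 (20.0%), Shmt2 (2.70 and 3.90) and Mat2a (3.32 and 3.08), without Ahcy and Bhmt. The shares of these last 3 lists lay near the 24.0% of all genes. The reproducible set named 0 genes in them, 1 of the 10 readers and 2 of the 12 heterochromatin and imprint genes, against 11.8% of all genes.

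**Figure D5:**
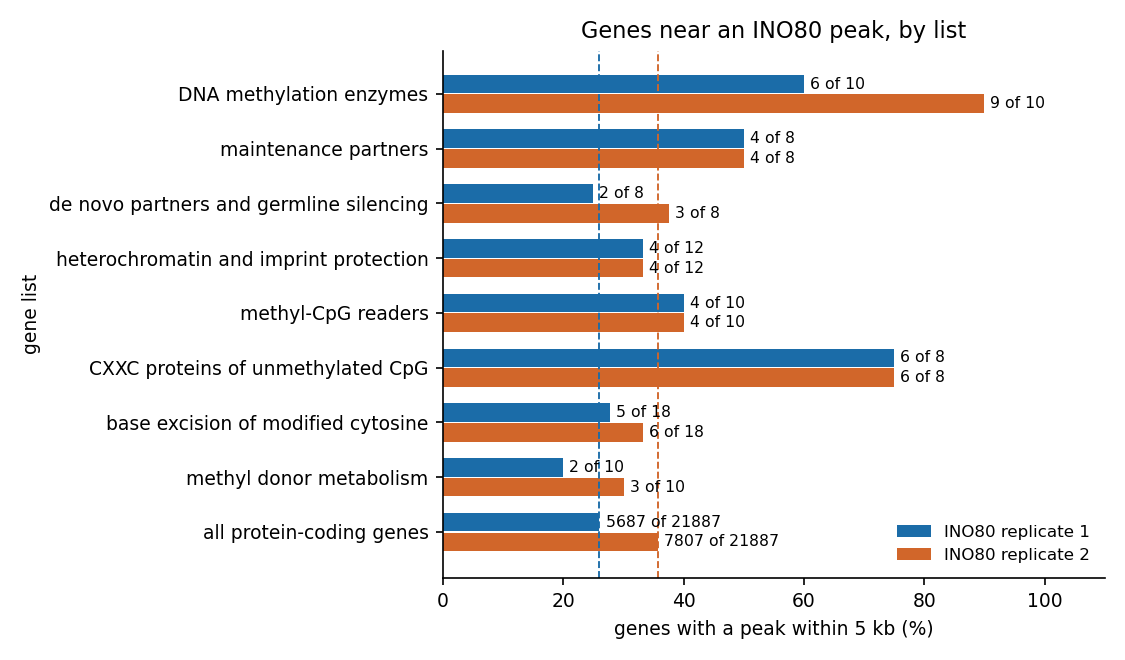
Share of genes with an INO80 peak within 5 kb (x axis, %) in each list (y axis), replicate 1 in blue and replicate 2 in orange, with counts beside the bars and dashed lines at the shares over all protein-coding genes, 26.0% and 35.7%. DNA methylation enzymes (6 and 9 of 10) and CXXC proteins (6 and 6 of 8) have the longest bars of the lists shown.

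In the authors' deposited table of functional terms, Dnmt1 stood in 53 terms, Dnmt3b in 41, Uhrf2 in 31 and Tet3 in 24, and the other 6 genes in none. Of those 6, Tet2 alone was named by the reproducible set. A term table made from that set could name none of the rest. The authors' deposited table lists maintenance of DNA methylation with 4 genes (Dnmt1, Uhrf2, Usp7 and the imprinted non-coding gene Kcnq1ot1) of 8 in the authors' background, a fold enrichment of 4.24, a p of 0.0581 and a Benjamini-adjusted p of 0.521. Tet2, although it had a reproducible peak, was in none of the 2291 terms of the authors' deposited table. None of the 10 genes was in the authors' table of selected repair, chromatin and meiotic genes near peaks.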

How the data were processed

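INO80 ChIP-seq was analysed in 2 INO80 libraries, with read numbers of 2 input libraries. Per the submitters' processing notes, MACS2 2.2.7.1, BWA, deepTools 3.4.3, fastp, SAMtools 1.11 and Picard 2.21.2 were used with GRCm38 and mm10. For their roles, and for the control that peaks were called against, nothing is given in the sources used here. Deposited by the authors was a broad peak list per replicate with a fold enrichment ratio, a −log10 p, a −log10 q and a score per peak. The score was 10 times the −log10 q, truncated, for 5123 of 5123 and 7835 of 7836 peaks. The authors deposited rounded read numbers, the reproducible set without signal, and a term table with a gene count, a fold and p-values.

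Peaks were tied to a gene when within 5 kb of its RefSeq span (GRCm38.p6), and overlaps needed 1 bp. The distance search was tested on simulated peaks. The authors' distances gave the RefSeq start exactly for 4 of 5 genes. Promoter sequences are from RefSeq, and all 10 genes matched. The genes and lists were chosen with earlier results of these data known. All 10 genes are named, and in each pathway list up to 3 with the highest mean fold near a peak in both replicates and up to 2, by alphabet, without a peak. The markers named were chosen after their values were seen. An item that this rule names is left out of the text. No test was run, as all ChIP libraries form 1 group. The dates in the peak names differ between replicates, so date and replicate cannot be told apart. Python 3.11.15 and pandas 2.3.3 were used.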

Additional observations from a re-analysis of the deposited data

How the results depend on the processing

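The count of genes near a peak was recomputed under other settings. With a window of 1 kb, or with transcript starts in place of gene spans, the counts were again 6 in replicate 1, 9 in replicate 2 and 6 in both. A window of 10 kb added Dnmt3l in replicate 2, for 10. Requiring a −log10 q of at least 3, or a fold of at least 3, left 4 in replicate 1 (Dnmt3b, Tet2, Tet3 and Uhrf2), 8 in replicate 2 (without Uhrf1) and 4 in both. Reciprocal overlap of 50% also left 4 in both, but other ones: Dnmt1, Dnmt3b, Tdg and, by its start 2 alone, Tet3. Tet2 (44.4%) and Uhrf2 (46.3%) fell below that limit. Shares of all protein-coding genes are not given at these other settings. The recounts therefore do not show how the 10 genes compare with all genes there. Leaving out 1 replicate only gave back the count of the other, 6 genes in replicate 1 and 9 in replicate 2, and so was no separate check. The reproducible set gave 5 genes also by distance and within 1 kb of the start. The median mean fold of 3.63 ran from 3.27 to 4.03 without 1 replicate, and the Tet3 mean was 3.35 with the peaks at start 2, against 3.54 with the strongest peak of each replicate. No paired analysis was possible because the inputs have no peak values in the files used here and the INO80 libraries form 1 group. Replicate 1 had fewer peaks than replicate 2, although more unique reads. Why Dnmt3a, Tet1 and Uhrf1 had no replicate 1 peak was not tested. The lack of a peak in that list does not show that INO80 was absent there.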
